A study of Taeniopygia guttata with 24 samples.

Results

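The change in gene expression between 20 and 65 days post hatch (dph) was examined in the telencephalon of zebra finches (Taeniopygia guttata), the songbird in which males learn their song during this interval. The comparison took the 12 pools of these ages out of the 24 pools of the series, 3 female and 3 male pools at 20 dph against 3 female and 3 male pools at 65 dph, with sex held constant, over the 13891 genes that reached 1 cpm (read counts scaled to a common library total) in at least 3 of the 24 pools. A pool held equal amounts of RNA from 3 birds that matched in sex and age, so that differences between single birds were averaged and the 6 pools of an age, not birds, were the replicates. The birds were bred in one aviary and received no treatment that the labels name, chicks of a nest were spread over the ages at random, and the 65 dph birds were within 3 days of that age. The other 12 pools, at 1 dph and in adults, served to estimate the spread of each gene and are given beside some results.

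Around 20 dph a male zebra finch begins to memorize the song of a tutor, and around 65 dph it practises its own song against that memory, while females do not sing. Over the same weeks the forebrain still receives new neurons, oligodendrocyte precursors turn into myelin-forming oligodendrocytes, and fast-spiking interneurons that contain parvalbumin gain mature properties and are wrapped by perineuronal nets, a condensed matrix of hyaluronan, link proteins and chondroitin sulfate proteoglycans. Such changes accompany the opening and closing of critical periods in several vertebrates. Whole telencephalon was sequenced, so that in every result fewer cells of a type and less RNA per cell cannot be told apart.

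Between 20805764 and 28772178 reads were counted on genes in the 20 dph pools and between 16680575 and 25588524 in the 65 dph pools, where 3 reads correspond to 0.104 to 0.180 cpm. The most similar pool to each of the 12 was of the same age in 12 of 12 cases, with correlations of log2 cpm of 0.984 to 0.991 within an age and 0.978 to 0.985 between the ages, and no pool stood apart. All 12 pairs of pools of one sex and age differed by more than the sampling noise of reads, so that none was the same library read again. This check cannot tell a second library made from the same RNA. The labelled tissue was checked against its markers. The forebrain transcription factors NEUROD6, TBR1, DLX1, LHX2 and EMX2 were present in every pool, with medians at 20 dph from 8.09 cpm for EMX2 to 499 cpm for NEUROD6. Markers of hypothalamus, thalamus and midbrain were not all absent. NKX2-4 of the hypothalamus had a median of 0.0228 cpm, but the 10 tested markers summed to 48.7 to 58.4 cpm at 20 dph. The largest share was that of HCRT, which is described with the neuropeptides.

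In the main comparison 4163 of 13891 genes passed a Benjamini-Hochberg threshold of 0.05 in edgeR's quasi-likelihood F test (30.0%), of which 2024 (14.6%) were higher and 2139 (15.4%) were lower at 65 dph. Most of these changes were small, since the median absolute log2 fold change of the called genes was 0.34, a 1.26-fold difference, and 280 of them (6.73%) passed 2-fold. Larger changes were mostly decreases, with 196 of those 280 genes lower and 84 higher at 65 dph. The 6 pools of 65 dph lay above all 6 pools of 20 dph in 1075 genes (7.74%) and below all of them in 1029 genes (7.41%), and the median log2 fold change over all genes was 0.00. Against a minimum change of 1.2-fold, 1070 genes passed, 411 higher and 659 lower.

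**Figure D1:**
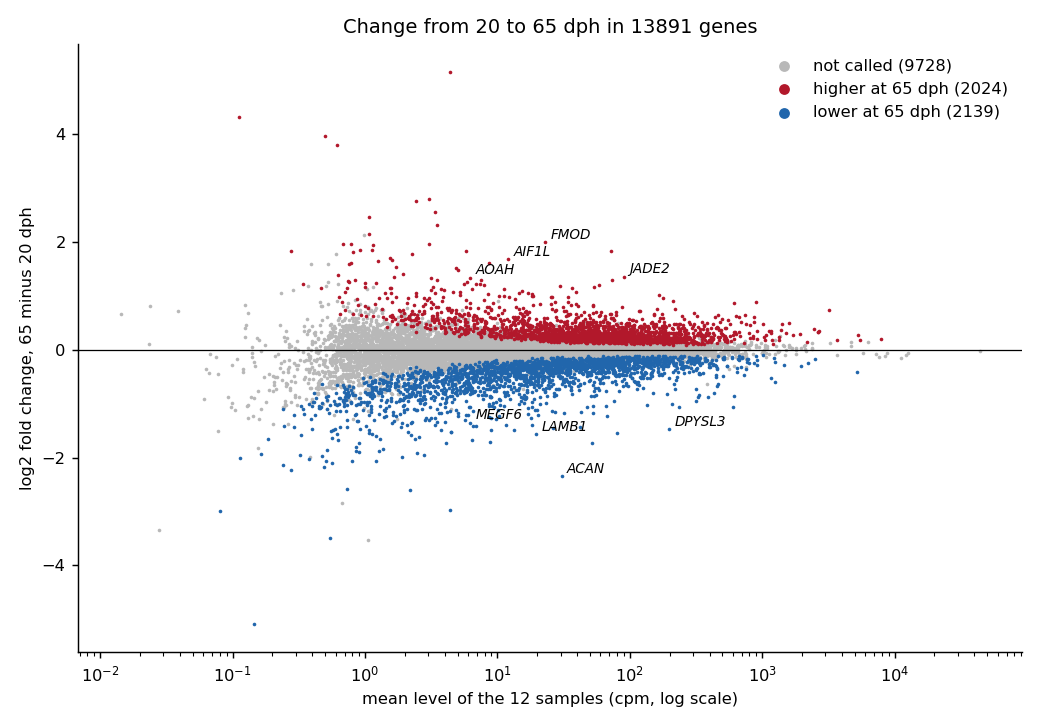
Log2 fold change from 20 to 65 dph (vertical axis) against the mean level of the 12 pools in cpm (horizontal axis, log scale) for 13891 genes. Each point is a gene, red where it was called higher at 65 dph (2024 genes), blue where it was called lower (2139) and grey where it was not called, and ACAN at -2.35 and FMOD at 2.0 are among the labelled points farthest from the zero line.

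Symbols could be paired with 3514 of the genes tested, through names in the study's supplementary tables, which list genes partly because they changed with age. Of genes with a symbol 43.1% were called (21.1% higher, 22% lower), against 25.5% of the 10377 genes without one (12.3% higher, 13.2% lower). The shares of called members in the gene groups described hereafter should be read against 43.1%, and their medians against a median log2 fold change of 0.01 over genes with a symbol. Shares called in a single direction should be read against 21.1% higher or 22% lower. The ages did not overlap in 13.7% (65 dph above) and 11.9% (65 dph below) of genes with a symbol.

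Among genes with a symbol that reached 5 cpm at either age and did not overlap between the ages, the largest decrease was that of ACAN (ENSTGUG00000008302), which encodes aggrecan, a large chondroitin sulfate proteoglycan and a main component of perineuronal nets. ACAN had 36.4 to 71.9 cpm (median 48.6) at 20 dph and 7.07 to 12.6 cpm (median 10.4) at 65 dph, a 5.09-fold decrease (log2 fold change -2.35 ± 0.19 (SE), adjusted p = 4.6e-09). As this choice required, the highest of the 65 dph pools was below the lowest of the 20 dph pools. The decrease was found in females (-2.67) and in males (-2.03, both log2). In adults the mean level was 14.8 cpm against 9.98 cpm at 65 dph, a rise (log2 fold change 0.57, adjusted p = 0.042).

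Components of vessel walls and basement membranes followed. FN1 (ENSTGUG00000002978), fibronectin, had 99.5 to 135 cpm (median 118) at 20 dph and 34.6 to 47.8 cpm (median 41.1) at 65 dph (log2 fold change -1.55 ± 0.09 (SE), adjusted p = 5.4e-11). LAMB1, a laminin beta chain, fell from a median of 29.9 to 9.53 cpm, and NID1, nidogen, which links laminin to collagen IV, fell from 38.5 to 14.2 cpm. For both genes the ages did not overlap, which was a condition of the choice. FNDC1, a protein with fibronectin type III domains, and MEGF6, a protein with EGF-like repeats, fell with log2 fold changes of -1.39 and -1.35.

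Other large decreases included those of some genes of growing neurons. DPYSL3 (ENSTGUG00000000047), a collapsin response mediator protein of growing axons, had the smallest p-value of all genes with a symbol, with 260.1 to 324 cpm (median 295) at 20 dph and 96.9 to 116 cpm (median 105) at 65 dph (log2 fold change -1.48 ± 0.06 (SE), adjusted p = 2.4e-13). Its relative DPYSL5 fell from a median of 63.9 to 23.2 cpm. TUBB2A, a beta-tubulin abundant in developing neurons, was 2.096-fold lower, and TRAF5, an adaptor of tumour necrosis factor receptors, 2.06-fold lower. The counts of tubulin genes are less certain than others, since near-identical copies may share reads. TSPAN2, a tetraspanin found in oligodendrocytes, had 22.8 to 31.8 cpm (median 25.5) at 20 dph and 7.89 to 11.2 cpm (median 10.4) at 65 dph, without overlap as the choice required.

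Under the same conditions FMOD (ENSTGUG00000017456) rose most. It encodes fibromodulin, a small leucine-rich proteoglycan that binds collagen, and had 6.53 to 10.7 cpm (median 9.93) at 20 dph and 31.7 to 44.05 cpm (median 36.2) at 65 dph, a 3.99-fold increase (log2 fold change 2.0 ± 0.11 (SE), adjusted p = 5.4e-11). LRMP, a membrane protein of the endoplasmic reticulum first described in lymphoid cells, had 25.2 to 38 cpm (median 29.8) at 20 dph and 103 to 128 cpm (median 111) at 65 dph (log2 fold change 1.84 ± 0.10 (SE), adjusted p = 1.6e-11). JADE2, a subunit of a histone acetyltransferase complex, had 46.6 to 57.5 cpm (median 49.04) at 20 dph and 118 to 142 cpm (median 129.6) at 65 dph (log2 fold change 1.36 ± 0.07 (SE), adjusted p = 1.6e-11). All 6 pools of 65 dph were above all 6 of 20 dph for these 3 genes, as the conditions of the choice required.

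HEBP2, a haem-binding protein, AIF1L, an actin-binding protein, and GLIPR2, a Golgi-associated protein, rose by log2 fold changes of 1.83, 1.68 and 1.49 from levels below 8 cpm. IGSF9B, an adhesion molecule of inhibitory synapses, rose from a median of 34.1 to 79.5 cpm and SH2D5, a brain adaptor protein, from 17.1 to 42.3 cpm. The others of the 12 largest rises were AOAH, an enzyme that inactivates lipopolysaccharide (1.34), AGBL4, which trims glutamate chains from tubulin (1.26), HOPX, a homeodomain protein that does not bind DNA (1.22), and the link protein gene HAPLN4 (1.12). Among more abundant genes, ITPR1, the inositol trisphosphate receptor of intracellular calcium stores, had 366 to 501 cpm (median 425) at 20 dph and 744 to 857 cpm (median 764) at 65 dph. DGKI, a diacylglycerol kinase that ends signalling by diacylglycerol, rose 1.59-fold from a median of 135 cpm. Both were among the 5 genes with a symbol that rose with the smallest p-values (adjusted p = 3.9e-10 and 1e-09).

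**Figure D2:**
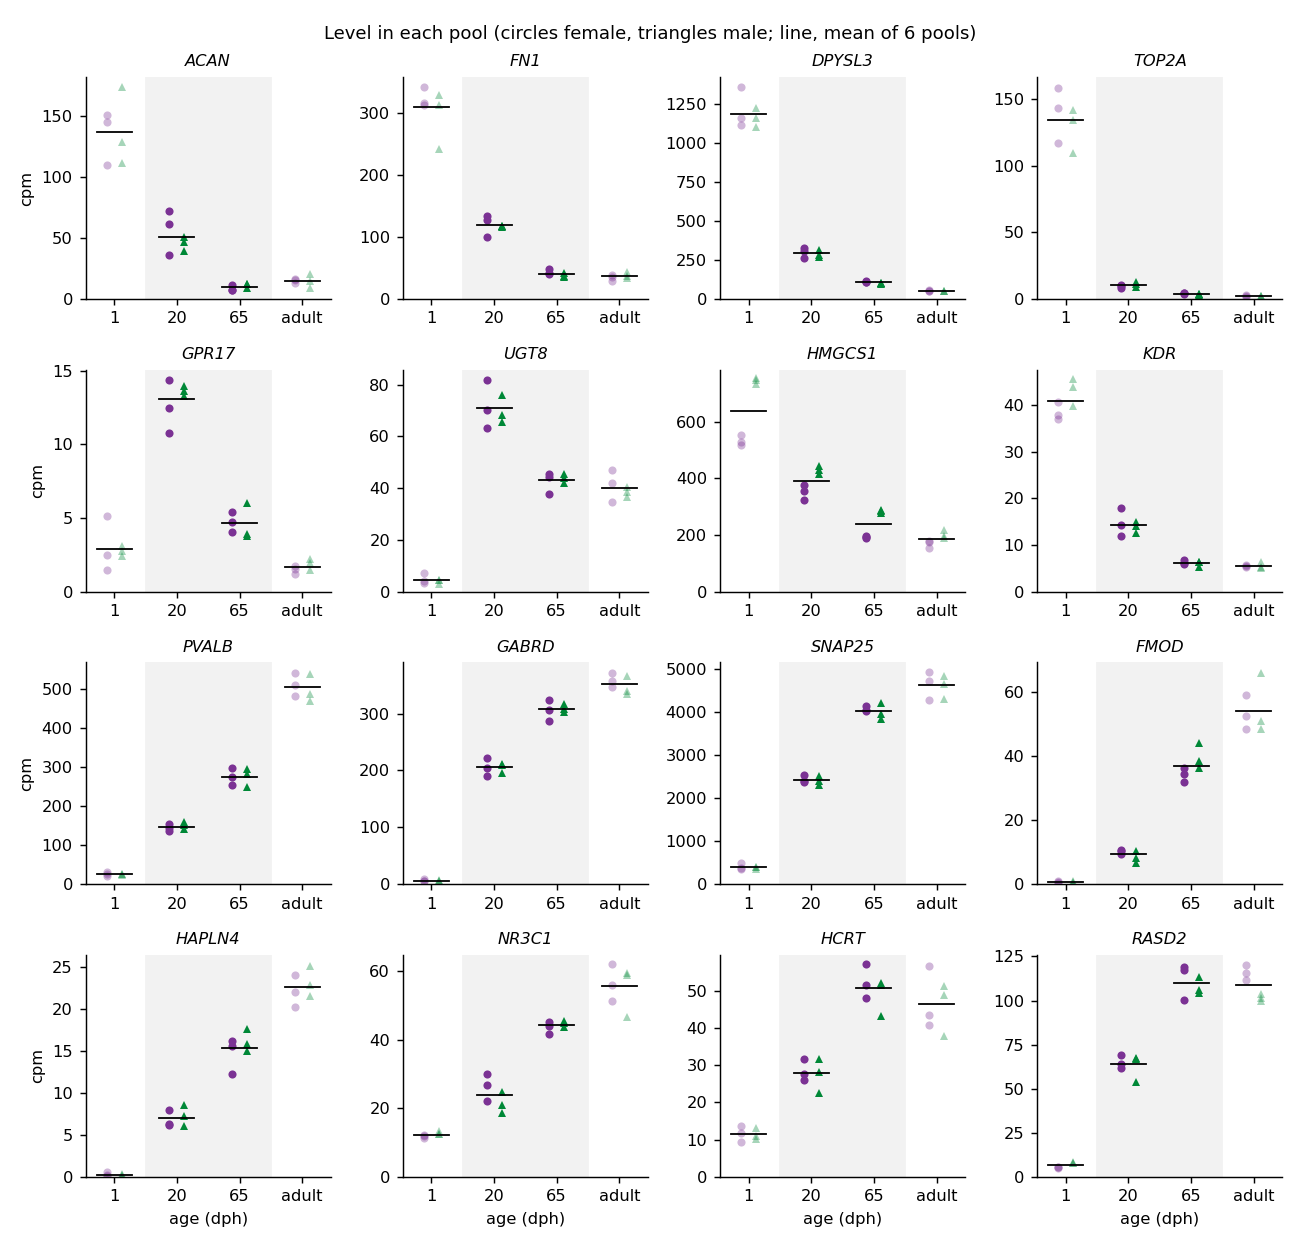
Level in cpm (vertical axis, from 0) of 16 genes in each of the 24 pools by age in dph (horizontal axis), circles for female and triangles for male pools, with a line at the mean of the 6 pools of an age and the compared ages on grey ground. The 16 genes were picked by hand from the named genes, and pools of 20 and 65 dph did not overlap in any of them, which is not a result about other genes. ACAN fell from a median of 48.6 to 10.4 cpm while PVALB rose from 147 to 279 cpm.

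Genes of collagens and the vascular matrix had the lowest median of the 28 gene groups. Of 15 tested entries for 14 of the 27 listed genes, 14 fell and none rose, with a median log2 fold change of -0.86. These included FN1, LAMB1 and NID1. COL3A1, a fibrillar collagen of vessel walls, had 6.805 to 11.3 cpm (median 9.67) at 20 dph and 2.92 to 4.302 cpm (median 3.65) at 65 dph (log2 fold change -1.41 ± 0.13 (SE), adjusted p = 2.5e-08), and a second, low entry of the gene fell too. COL6A2 (-1.34), the second nidogen gene NID2 (-1.16) and the laminin chain LAMA4 (-0.86, all log2) fell without overlap of the ages. SPARC, a matricellular protein that binds collagen, had 1317 to 1441 cpm (median 1379) at 20 dph and 934 to 1039 cpm (median 945) at 65 dph (log2 fold change -0.52 ± 0.06 (SE), adjusted p = 7.3e-07). Other decreases were those of LOX, which crosslinks collagen and elastin (-0.59), FBLN1, fibulin (-0.56), ELN, elastin (-0.43), and POSTN, periostin (-0.42). COL5A2 was the exception, with 41.4 to 57.1 cpm at 20 dph and 46.01 to 54.2 cpm at 65 dph (log2 fold change 0.04 ± 0.08 (SE), adjusted p = 0.76).

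Markers of endothelium and pericytes, the cells of capillaries, fell in 6 of 8 tested members and rose in none, with a median of -0.62. KDR, the main receptor for vascular endothelial growth factor, had 11.9 to 17.9 cpm (median 14.3) at 20 dph and 5.36 to 6.75 cpm (median 6.21) at 65 dph (log2 fold change -1.22 ± 0.09 (SE), adjusted p = 1.8e-09). CDH5, the cadherin of endothelial junctions, fell from a median of 11.9 to 5.64 cpm, ENG, endoglin, from 21.4 to 11.8 cpm, and PDGFRB, a receptor of pericytes, from 14.7 to 9.77 cpm. For these 4 genes the 65 dph pools all lay below the 20 dph pools. The receptors TEK (-0.64) and FLT1 (-0.42) fell too, with overlapping pools. The haemoglobin genes HBAA and HBE1, markers of red cells, summed to 512 to 647 cpm at 20 dph and 503 to 758 cpm at 65 dph, with overlapping pools, and neither was called. The part of blood left in the tissue in the vascular decreases was not tested.

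In the group of perineuronal nets and brain extracellular matrix, which is not limited to parts of the nets, the members changed in opposite directions. Of 11 tested members 5 fell and 3 rose, and the median was -0.07. Those that fell were proteoglycans and tenascins. TNC, tenascin C, a glycoprotein abundant in the developing brain, had 53.1 to 63.8 cpm (median 59.2) at 20 dph and 22.7 to 31.7 cpm (median 25.3) at 65 dph (log2 fold change -1.15 ± 0.08 (SE), adjusted p = 6.5e-10). VCAN, versican, which is also a gene of oligodendrocyte precursors, had 21.4 to 33.7 cpm (median 25.98) at 20 dph and 10.01 to 13.5 cpm (median 12.6) at 65 dph (log2 fold change -1.11 ± 0.11 (SE), adjusted p = 6.7e-08). Both fell without overlap, as ACAN did, while NCAN, neurocan (-0.24), and TNR, tenascin R (-0.21, both log2), fell less and with overlapping pools. HAPLN4 (ENSTGUG00000014007), a link protein that holds proteoglycans on hyaluronan around inhibitory synapses, had 6.003 to 8.57 cpm (median 6.805) at 20 dph and 12.2 to 17.6 cpm (median 15.7) at 65 dph (log2 fold change 1.12 ± 0.15 (SE), adjusted p = 7.5e-06). The others that rose were MMP9, a protease that cleaves matrix (0.31 ± 0.06), and NPTX2, a pentraxin secreted by excitatory neurons onto parvalbumin interneurons (0.29 ± 0.10, log2). HAPLN4 and MMP9 pools did not overlap between the ages, and those of NPTX2 did. For HAPLN4, which was among the 12 largest rises, the absence of overlap was a condition of the choice. Leaving out 1 pool ended the call of TNR in 6 of 12 cases and that of NPTX2 in 8 of 12 (adjusted p up to 0.099 and 0.13).

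The interneuron gene PVALB (ENSTGUG00000010713), the calcium buffer parvalbumin, had 135 to 159 cpm (median 147) at 20 dph and 249 to 297 cpm (median 279) at 65 dph, a 1.87-fold increase (log2 fold change 0.91 ± 0.07 (SE), adjusted p = 3.7e-09) of nearly equal size in females (0.93) and males (0.88). In the group of genes for GABA synthesis, interneurons and GABA-A receptors, 9 of 25 tested entries rose and 2 fell, with a median of 0.12. The share called in either direction, 44.0%, was near the 43.1% of all genes with a symbol. KCNC2 and KCNC1, potassium channels that allow fast spiking, rose from medians of 136 to 201 and of 72.5 to 88.02 cpm. GABRD, the receptor subunit of tonic inhibition outside synapses, had 190.4 to 222 cpm (median 207) at 20 dph and 288 to 324 cpm (median 308) at 65 dph (log2 fold change 0.58 ± 0.06 (SE), adjusted p = 1.2e-07).

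Other subunits of the GABA-A receptor were unequal. GABRB1 (0.80), GABRA4 (0.33) and GABRA5 (0.22) rose, CALB2, the interneuron calcium buffer calretinin, rose by 0.30, and GABRA3, typical of young forebrain in mammals, fell (-0.22, all log2). SLC12A2, a transporter that loads immature neurons with chloride, fell (log2 fold change -0.34 ± 0.08 (SE), adjusted p = 0.0035), although its pools overlapped. The enzymes of GABA synthesis were not called. GAD2 had 278 to 315 cpm (median 296) at 20 dph and 295 to 348 cpm (median 317) at 65 dph (log2 fold change 0.11 ± 0.06 (SE), adjusted p = 0.18). The more counted of 2 entries of GAD1 had 137 to 188 cpm (median 159) at 20 dph and 159 to 194 cpm (median 177) at 65 dph (log2 fold change 0.16 ± 0.09 (SE), adjusted p = 0.19).

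Genes of immature and migrating neurons were lower at 65 dph in 10 of 13 tested members and higher in none, with a median of -0.41. DCX, doublecortin, which stabilizes microtubules in migrating neurons, had 16.9 to 37.8 cpm (median 27.6) at 20 dph and 9.84 to 13.8 cpm (median 12.3) at 65 dph (log2 fold change -1.21 ± 0.14 (SE), adjusted p = 6.9e-07). NREP, a small protein of growing neurons, fell from a median of 417 to 206 cpm, FABP7, the fatty acid carrier of radial glia, from 793 to 434 cpm, and SOX11, a transcription factor of newborn neurons, from 16.99 to 10.3 cpm. None of these 4 genes had overlapping pools. TUBA1A, an alpha-tubulin, CRMP1, the neuronal transcription factor NEUROD6 and the interneuron factors DLX1 and DLX2 fell with log2 fold changes between -0.46 and -0.29. The call of DLX2 was lost without 1 pool in 7 of 12 cases (adjusted p up to 0.095).

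Cell cycle genes fell in 19 of 28 tested members and rose in none, with a median of -0.69. Their levels at 20 dph were already low. TOP2A (ENSTGUG00000002312), the topoisomerase of dividing cells, had 8.01 to 12.7 cpm (median 9.89) at 20 dph and 2.66 to 4.63 cpm (median 3.72) at 65 dph (log2 fold change -1.42 ± 0.13 (SE), adjusted p = 3.2e-08). CDK1, the mitotic kinase, had 2.24 to 4.602 cpm (median 4.24) at 20 dph and 0.863 to 1.78 cpm (median 1.27) at 65 dph (log2 fold change -1.62 ± 0.17 (SE), adjusted p = 1.6e-07). CCNA2, cyclin A, had 1.24 to 1.97 cpm (median 1.54) at 20 dph and 0.431 to 0.6804 cpm (median 0.559) at 65 dph (log2 fold change -1.49 ± 0.17 (SE), adjusted p = 8.6e-07). In these 3 genes every pool of 65 dph was below every pool of 20 dph. CDC20 (-1.43), CCNB3 (-1.41), BIRC5 (-1.36) and PLK1 (-1.30) of mitosis and RRM2 (-1.27) of nucleotide supply fell by more than 2-fold. The replication licensing factor MCM2 fell less, from a median of 25.2 to 17.01 cpm. MKI67, a standard marker of dividing cells, had 0.137 to 0.562 cpm at 20 dph and 0.0539 to 0.2896 cpm at 65 dph, close to the level of a few reads, and was not called (log2 fold change -0.64 ± 0.39 (SE), adjusted p = 0.23).

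Of neural progenitor genes, 6 of 12 fell and none rose, and the median was -0.21. EOMES, a factor of intermediate progenitors in mammals, fell from a median of 1.14 to 0.497 cpm, the Notch ligand DLL1 from 6.98 to 4.59 cpm and its receptor NOTCH1 from 33.6 to 24.5 cpm, each without overlap. MSI1, an RNA-binding protein of progenitors, fell too (-0.17), as did LHX2, a factor that patterns the forebrain (-0.23, both log2), but without 1 pool these calls were lost in 8 and 5 of 12 cases (adjusted p up to 0.11 and 0.081). The progenitor factors SOX2 and PAX6 were not called, with log2 fold changes of -0.08 ± 0.05 (adjusted p = 0.24) and 0.15 ± 0.09 (adjusted p = 0.25).

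Axon guidance genes fell in 13 of 22 tested members and rose in 1, with a median of -0.23. Receptors for semaphorins were among them, with NRP1 from a median of 64.5 to 42.6 cpm (log2 fold change -0.60 ± 0.07 (SE), adjusted p = 8.7e-07), NRP2 (-0.44), PLXNA1 (-0.29) and PLXNA4 (-0.34), as were the semaphorins SEMA6D (-0.42) and SEMA6A (-0.20). Of the netrin pathway, the ligand NTN1 fell from a median of 5.37 to 3.71 cpm and the receptor NEO1, neogenin, from a median of 124 to 98.6 cpm, while UNC5A, a netrin receptor that mediates repulsion, rose (log2 fold change 0.20 ± 0.07 (SE), adjusted p = 0.026). SLIT1, a repellent ligand, fell (-0.22), and SLIT3 was not called (0.10). Without 1 pool the call of UNC5A was lost in 7 of 12 cases and that of SEMA6A in 5 (adjusted p up to 0.079 and 0.075).

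**Figure D3:**
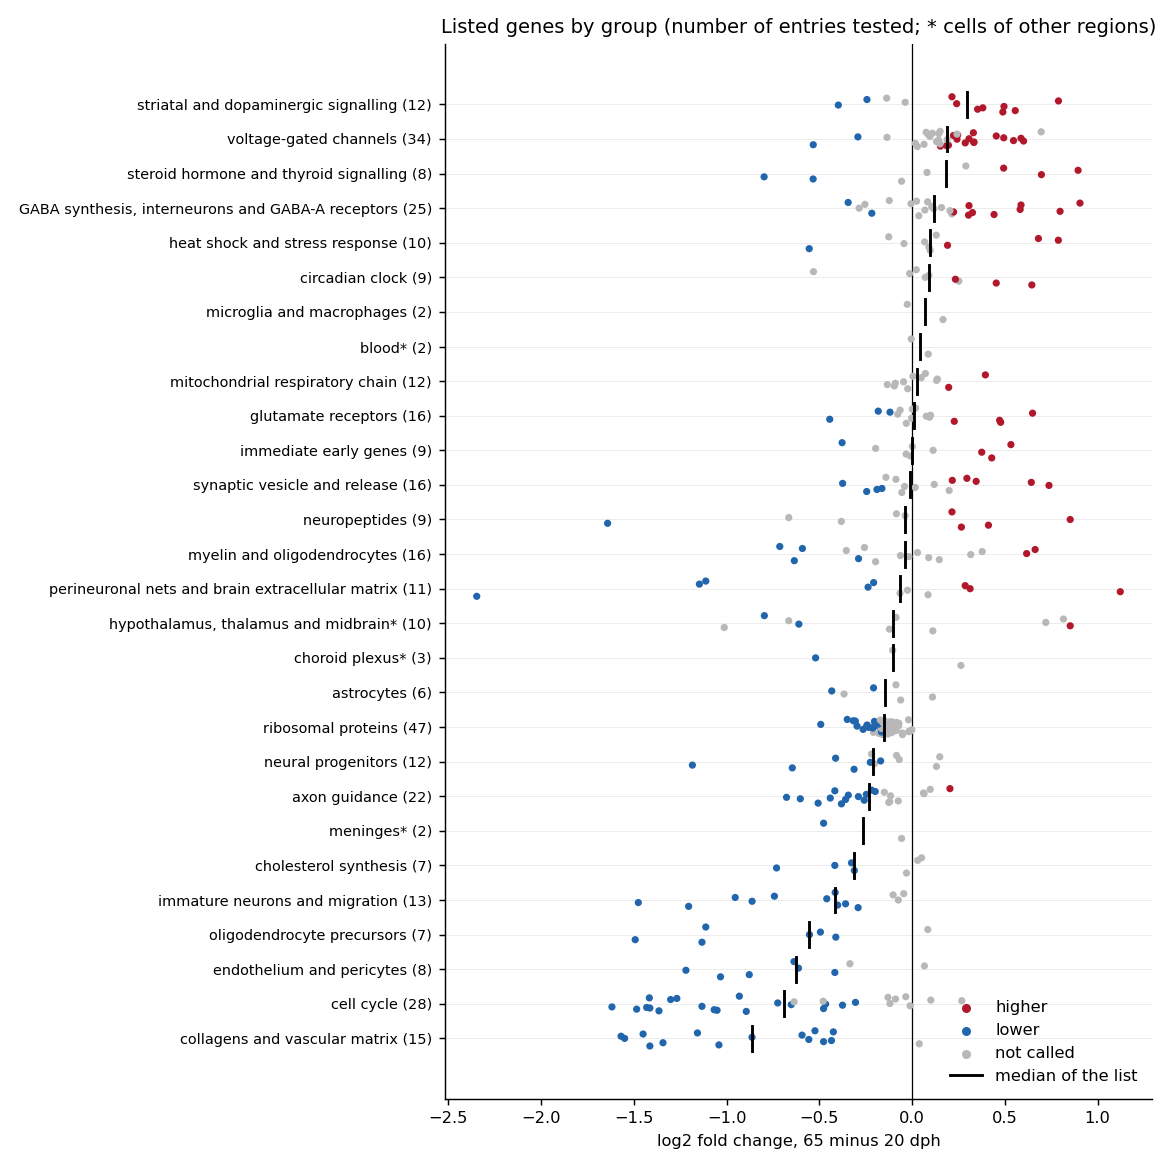
Log2 fold change from 20 to 65 dph (horizontal axis) of every tested member of the 28 gene groups (rows, ordered by their median, with the number of entries), red for called higher, blue for called lower and grey for not called, with a black bar at the median. Collagens and vascular matrix had the lowest median (-0.86) and striatal and dopaminergic signalling the highest (0.30) of these groups.

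Genes of the oligodendrocyte lineage were described by stage. Of 7 genes of oligodendrocyte precursors 6 fell and none rose, with a median of -0.55. GPR17 (ENSTGUG00000007646), a receptor of precursors committed to differentiation, had 10.8 to 14.4 cpm (median 13.5) at 20 dph and 3.77 to 5.99 cpm (median 4.4) at 65 dph (log2 fold change -1.49 ± 0.19 (SE), adjusted p = 3.6e-06). CSPG4, the NG2 proteoglycan, fell from a median of 6.07 to 2.703 cpm and PDGFRA, the growth factor receptor that maintains precursors, from 41.6 to 28.5 cpm. VCAN, NKX2-2 (-0.55) and LHFPL3 (-0.41) were the others that fell, SOX8 was not called (0.08 ± 0.06), and in the 6 genes that fell the ages did not overlap.

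Among genes of myelin and mature oligodendrocytes, 4 of 16 fell, 2 rose and the median was -0.04. The share called in either direction, 37.5%, was below the 43.1% of all genes with a symbol. UGT8 (ENSTGUG00000001840), which makes the galactolipids of myelin, had 63.2 to 81.8 cpm (median 69.3) at 20 dph and 37.7 to 45.6 cpm (median 44.2) at 65 dph (log2 fold change -0.71 ± 0.12 (SE), adjusted p = 6.7e-05). BCAS1, a marker of oligodendrocytes that are starting to myelinate, fell from a median of 22.7 to 15.1 cpm, and CNP from 141 to 114 cpm. NKX6-2, a transcription factor of myelination, and FA2H, which hydroxylates the fatty acids of myelin lipids, rose by 0.66 and 0.62 on the log2 scale, and their pools of 20 and 65 dph did not overlap.

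MBP, myelin basic protein, had 541 to 733 cpm (median 614) at 20 dph and 466 to 514 cpm (median 499) at 65 dph. All 6 pools of 65 dph were lower, but the gene did not pass the test with all 24 pools (log2 fold change -0.35 ± 0.16 (SE), adjusted p = 0.090), whereas it passed in a fit to the 12 pools alone (adjusted p = 0.00077). The pools of 1 dph enter the first fit only through their spread, since each group has its own mean. Their mean level was 19.8 cpm, and the third female pool had 1179 reads against 387 to 476 in the others. The part of that pool in the missed call was not tested.

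Cholesterol synthesis supplies growing myelin and neuronal membrane, and 4 of its 7 tested enzymes fell while none rose (median -0.31). HMGCS1, which makes the HMG-CoA used in the pathway, had 322 to 442 cpm (median 395) at 20 dph and 189 to 287 cpm (median 236) at 65 dph (log2 fold change -0.73 ± 0.04 (SE), adjusted p = 8.9e-11). IDI1 (-0.42) and LSS (-0.33, both log2) fell less, with overlapping pools for LSS. Of 6 astrocyte markers, the glutamate transporters SLC1A2 (-0.43 ± 0.12) and SLC1A3 (-0.21 ± 0.06, log2) fell with overlapping pools and 4 were not called, among them GLUL, glutamine synthetase (-0.06). The astrocyte markers called were 33.3% of those tested, against 43.1% of all genes with a symbol called and 22% called lower. The microglial marker CSF3R was not called and was below 0.5 cpm in all 12 pools.

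Synaptic genes changed in both directions. Of 16 genes of synaptic vesicles and transmitter release 5 rose and 4 fell, and the median was -0.01. The most counted, SNAP25 (ENSTGUG00000006133), a membrane fusion protein of nerve terminals, had 2299 to 2535 cpm (median 2390.0) at 20 dph and 3833 to 4192 cpm (median 4022) at 65 dph, a 1.67-fold increase (log2 fold change 0.74 ± 0.06 (SE), adjusted p = 6.8e-09) with the same log2 fold change of 0.74 in females and males. Each 65 dph pool was above each 20 dph pool. SYN2, a synapsin, which tethers vesicles, rose from a median of 1001 to 1264 cpm, and the calcium sensors SYT7 and SYT1 rose with log2 fold changes of 0.30 and 0.22. SV2C (0.64) rose whereas its relative SV2B (-0.37) fell, and the adhesion molecule NLGN3 (-0.19) and the complexin CPLX3 (-0.24) fell. The call of CPLX3 was lost without 1 pool in 3 of 12 cases (adjusted p up to 0.070).

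Glutamate receptors were likewise divided, with 4 of 16 genes higher, 3 lower and a median of 0.01. The share called in either direction, 43.8%, was near the 43.1% of all genes with a symbol. Of the AMPA receptor subunits, GRIA2, which keeps the channel closed to calcium, had 774 to 936 cpm (median 862) at 20 dph and 1114 to 1300.5 cpm (median 1173) at 65 dph (log2 fold change 0.48 ± 0.05 (SE), adjusted p = 6.1e-07). GRIA4 rose from a median of 175 to 249 cpm and GRIA3 rose by 0.23 on the log2 scale. The NMDA receptor subunits GRIN1 (0.09 ± 0.06, adjusted p = 0.24) and GRIN2A (0.08 ± 0.13, adjusted p = 0.70) were not called. Metabotropic receptors differed, with GRM2 higher at 65 dph (119 to 184 cpm in medians) and GRM3 (-0.12) and GRM7 (-0.18) lower. The kainate receptor GRIK1 fell from a median of 199 to 147 cpm without overlap. Without the third male pool of 20 dph GRM7 was not called (adjusted p = 0.059).

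Voltage-gated and related ion channels were more often higher than lower, with 16 of 34 entries that rose, 2 that fell and a median of 0.19. Potassium channels were among those that rose, with KCNA4 from a median of 57.6 to 90.4 cpm, KCNAB1, an accessory subunit, from 61.2 to 91.8 cpm, KCNC2, and 1 of 2 entries of the inward rectifier KCNJ3 from 90.5 to 124 cpm (the other was not called). Each of these had no overlap between the ages. The pacemaker channel HCN2 (0.33) and the sodium channel subunit SCN2B (0.33) rose, while SCN1A (0.11, adjusted p = 0.38) and SCN8A (0.15, adjusted p = 0.063), the pore-forming sodium channel genes tested, were not called. CACNA1H, a T-type calcium channel with high levels in young neurons, fell from a median of 38.4 to 27.1 cpm, and KCNJ10, a potassium channel of glia, fell too (-0.29). Leaving out 1 pool gave between 11 and 17 channel entries that rose.

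Genes of striatal and dopaminergic signalling rose in 8 of 12 tested members and fell in 2, with a median of 0.30. The songbird striatum holds Area X, which is needed for song learning in males. RASD2, a small GTPase enriched in striatal neurons, had 53.9 to 68.8 cpm (median 65.4) at 20 dph and 100.3 to 119 cpm (median 109.7) at 65 dph, a 1.73-fold increase (log2 fold change 0.79 ± 0.06 (SE), adjusted p = 1.3e-09), without overlap. The dopamine receptors DRD1 and DRD5 rose from medians of 62.98 to 82.7 and of 59.7 to 82.2 cpm, and ADCY5, the adenylyl cyclase of striatal neurons, from 41.5 to 58.5 cpm. The adenosine receptor ADORA2A rose (0.56) from a median of 3.98 cpm, and so did ARPP21 (0.35), a cAMP-regulated phosphoprotein, the phosphodiesterase PDE1B (0.24) and TAC1, described with the neuropeptides. ISL1, a factor of developing striatal neurons (-0.40), and RGS9 (-0.24) fell, and PENK, the precursor of enkephalin, was not called, with 233 to 265 cpm (median 245) at 20 dph and 220.3 to 268 cpm (median 241) at 65 dph. Without 1 pool RGS9, ISL1 and PDE1B were not called in 9, 2 and 5 of 12 cases (adjusted p up to 0.091, 0.059 and 0.099).

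Of 9 genes of neuropeptides and their secretory granules, 4 rose and 1 fell. The granule proteins CHGB and CHGA rose from medians of 450.3 to 588 and of 516 to 626 cpm, and TAC1, the precursor of substance P, rose by 0.22, a call lost without 1 pool in 9 of 12 cases (adjusted p up to 0.13). GAL, galanin, had 0.729 to 1.201 cpm (median 0.757) at 20 dph and 0.0969 to 0.377 cpm (median 0.304) at 65 dph, the latter near the level of a few reads, and fell without overlap. HCRT (ENSTGUG00000018202), the precursor of the arousal peptides hypocretin or orexin, had 22.5 to 31.8 cpm (median 27.9) at 20 dph and 43.1 to 57.2 cpm (median 51.6) at 65 dph (log2 fold change 0.85 ± 0.11 (SE), adjusted p = 3e-06), with every 65 dph pool above every 20 dph pool.

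Neurons that make hypocretin lie in the hypothalamus, outside the telencephalon, so that the list of markers of hypothalamus, thalamus and midbrain is given beside this result. Of its 10 tested members HCRT rose, LEF1 (-0.61) and TCF7L2 (-0.80), both transcription factors of the thalamus, fell, and 7 were not called. The share called in either direction, 30.0%, was below the 43.1% of all genes with a symbol. The members summed to 48.7 to 58.4 cpm at 20 dph and 64.7 to 78.8 cpm at 65 dph, of which HCRT was the largest share. AGRP, a peptide of the arcuate nucleus of the hypothalamus, had 5.99 to 9.08 cpm at 20 dph and 6.62 to 9.299 cpm at 65 dph (log2 fold change 0.11 ± 0.12 (SE), adjusted p = 0.54), GATA2, OXT and TAL1 were not called, and NKX2-4 was at or near 0. GATA3 was not called in the main test, with 10 to 20 reads per pool at 20 dph and 2 to 11 at 65 dph. In the test on the 12 pools of these ages alone it was called lower (log2 fold change -0.97, adjusted p = 0.019). The third female pool of 1 dph had 323 reads of GATA3, against 32 to 87 in the other 1 dph pools. The part of that pool in the missed call was not tested. In 3 of the 10 members every 65 dph pool lay below every 20 dph pool, and in 1 above. Over all genes with a symbol the shares were 11.9% below and 13.7% above. The part of a differing dissection in the rise of HCRT was not tested. Of markers of the choroid plexus KL fell (-0.52) and AQP1 and PRLR were not called, and of the meninges DCN fell (-0.48) and ALDH1A2 was not called (-0.06). The summed levels of these lists overlapped between the ages (60.6 to 72.1 and 60.97 to 77.6 cpm for the choroid plexus, 90.96 to 115 and 84.8 to 104 cpm for the meninges), and DCN is also counted among the collagens and vascular matrix.

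Steroid hormones shape the song system, and of 8 tested genes of steroid, thyroid and retinoid signalling 3 rose and 2 fell. NR3C1 (ENSTGUG00000000140), the glucocorticoid receptor, had 18.7 to 29.9 cpm (median 23.4) at 20 dph and 41.7 to 45.5 cpm (median 44.5) at 65 dph, a 1.86-fold increase (log2 fold change 0.89 ± 0.08 (SE), adjusted p = 1.5e-08). CYP19A1, aromatase, which makes oestrogen from testosterone and is abundant in the songbird forebrain, had 9.52 to 15.4 cpm (median 12.4) at 20 dph and 15.4 to 34.9 cpm (median 18.3) at 65 dph (log2 fold change 0.70 ± 0.15 (SE), adjusted p = 0.0012), and the highest pool was a female one, without which the log2 fold change was 0.49. RARB, a retinoic acid receptor, rose from a median of 18.99 to 26.3 cpm, and CRABP1, a carrier of retinoic acid, fell from 4.91 to 2.88 cpm.

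Immediate early genes, which are transcribed within minutes of neuronal activity, rose in 3 of 9 tested members and fell in 1, with a median of 0.00. The share called in either direction, 44.4%, was near the 43.1% of all genes with a symbol. EGR1, known in songbirds as ZENK, had 226 to 349.6 cpm (median 264) at 20 dph and 292 to 411 cpm (median 349) at 65 dph (log2 fold change 0.38 ± 0.11 (SE), adjusted p = 0.0094). ARC rose from a median of 114 to 157 cpm and NR4A1 from 23.8 to 35.02 cpm. NR4A2 fell (-0.38), a call lost without 1 pool in 6 of 12 cases (adjusted p up to 0.084). Pools overlapped for EGR1 and ARC, and FOS was not called (log2 fold change 0.11 ± 0.13 (SE), adjusted p = 0.55). In females alone EGR1, ARC and NR4A1 passed the test and in males alone none did (log2 fold changes of EGR1 0.53 and 0.22), but the sex difference itself was not called for any gene. What the birds heard or sang before sampling was not given in the sources used here.

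Of 9 clock genes, BHLHE40 (56.7 to 95.6 cpm in medians), BHLHE41 (0.45) and CRY2 (0.23) rose and none fell. These were 33.3% of the clock genes, against 43.1% of all genes with a symbol called and 21.1% called higher. CLOCK was not called (log2 fold change 0.25 ± 0.10 (SE), adjusted p = 0.058). Heat shock and stress genes showed 3 rises and 1 fall among 10, with the small heat shock proteins HSPB1 (0.79) and HSPB8 (0.68) and the chaperone HSP90AA1 (0.19) higher, the stress-induced inhibitor DDIT4 (-0.55) lower and HSPA8 not called (0.07). Without the third male pool of 65 dph HSP90AA1 was not called (adjusted p = 0.052). The share of heat shock and stress genes called in either direction, 40.0%, was near the 43.1% of all genes with a symbol. In the mitochondrial respiratory chain 2 of 12 entries rose, SDHA (287 to 388 cpm) and COX4I1 (0.20), and none fell. The share that rose, 16.7%, was below the 21.1% of genes with a symbol that rose.

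Ribosomal protein genes fell in 15 of 47 tested entries (31.9%) and rose in none, and the median was -0.15. The share that fell was above the share of all genes with a symbol that fell. The share called in either direction was below that of all genes with a symbol. Over both sexes the log2 fold change was negative in all 47 entries, called or not. RPS2 had 539 to 659 cpm (median 577) at 20 dph and 371 to 465 cpm (median 419) at 65 dph (log2 fold change -0.49 ± 0.06 (SE), adjusted p = 2.5e-06), and RPSA, RPS12, RPL4 and RPS15A fell with log2 fold changes of -0.35, -0.30, -0.26 and -0.24. RPL3 was not called (-0.02). In females 2 and in males 17 entries passed the test, with medians of -0.06 and -0.24, and the difference between the sexes was called for none of them. Reads of these genes may be shared with near-identical sequences, and how such reads were counted is not given in the sources used here. Leaving out 1 pool gave between 11 and 19 entries that fell.

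The study concerns a behaviour of males, and the change from 20 to 65 dph was therefore compared between the sexes. The change in females alone or in males alone was a contrast within the main fit to all pools. It was not a separate fit to the pools of that sex, and the spread of each gene was estimated from both sexes. In females alone 2494 genes were called (18%), 1129 higher (8.13%) and 1365 lower (9.83%), and in males alone 2247 (16.2%), 1146 higher (8.25%) and 1101 lower (7.93%). The 1356 genes called in both were 54.4% of those called in females and 60.3% of those called in males, and 1355 of them changed in the same direction. Of the genes called in females 96.2% had the same sign in males, of those called in males 97.0% had the same sign in females, and of all genes tested 70.1%. The fold changes of the sexes, which share no pools, had a Pearson r of 0.551 across genes, which are not independent replicates.

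**Figure D4:**
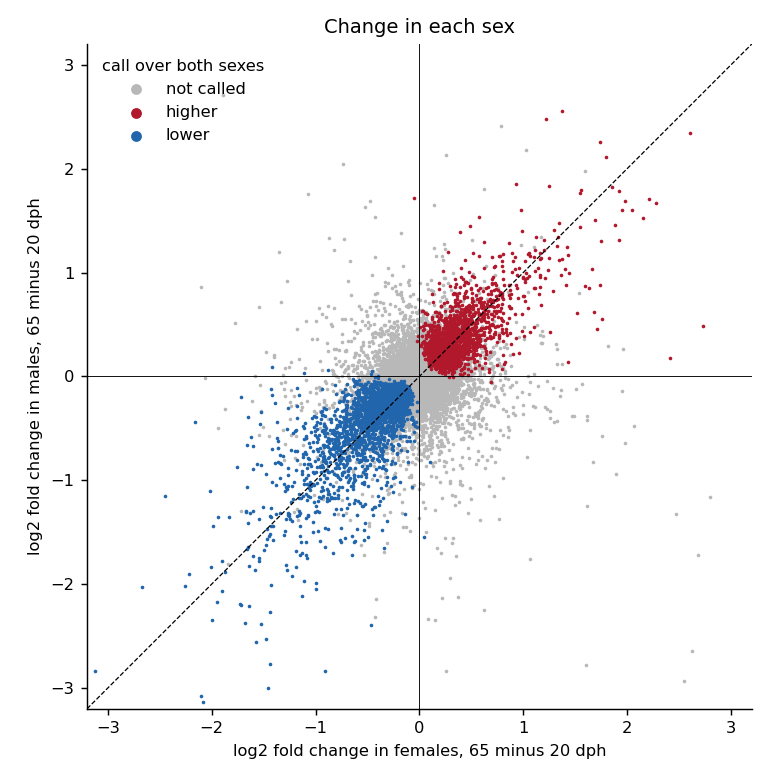
Log2 fold change from 20 to 65 dph in males (vertical axis) against that in females (horizontal axis), each point a gene, red or blue where it was called higher or lower over both sexes, with a dashed line at equality and 21 genes beyond the axes left out. Most called genes lie in the lower left and upper right quadrants, which a call on the mean of both plotted changes favours. Of the genes called in females 96.2% had the same sign in males.

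The test of the difference between the sexes, the male change minus the female change, called 0 of 13891 genes in edgeR's quasi-likelihood test, with 946 genes at an unadjusted p under 0.05 (6.81%) and a smallest adjusted p of 0.46. Both edgeR's likelihood ratio test and DESeq2 called 1 gene, the unnamed ENSTGUG00000013995, which was not called in the main test (adjusted p = 0.46). It had 5.90 to 6.56 cpm in females at 20 dph and 2.85 to 3.2 cpm at 65 dph, whereas it had 3.39 to 3.89 cpm in males at 20 dph and 4.26 to 5.54 cpm at 65 dph, so that its level at 65 dph was lower in females and higher in males, without overlap. The gene called in both sexes with opposite signs was ENSTGUG00000007701 (log2 fold changes of 0.26 in females and -0.23 in males), whose difference between the sexes had an unadjusted p of 0.00026 and an adjusted p of 0.70. Of 592 genes that the study's tables place on the Z chromosome, of which males carry 2 copies, 57 rose and 102 fell. The share called was 26.9%, against 30.0% of all genes tested (14.6% higher, 15.4% lower). For the Z genes the median difference between the sexes in the change was 0.05 on the log2 scale, against 0.01 for all other genes. Only 3837 of the 13891 genes had a chromosome in those tables, so that most of the other genes were unplaced and not known to be autosomal.

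Some genes without a symbol changed as well. ENSTGUG00000014651 had 6.30 to 9.43 cpm at 20 dph and 0.823 to 1.24 cpm at 65 dph (log2 fold change -2.98, adjusted p = 6.4e-11), and ENSTGUG00000012313 had 4.26 to 7.58 cpm and 1.45 to 2.87 cpm (log2 fold change -1.73, adjusted p = 6.0e-07). ENSTGUG00000008939 was nearly silent at 20 dph, with 0.0911 to 0.472 cpm, and had 1.40 to 14.3 cpm at 65 dph (log2 fold change 5.16, adjusted p = 3.4e-06). These genes were chosen after their values were seen.

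The neighbouring age steps share pools with the comparison of 20 and 65 dph and are given side by side only. From 1 to 20 dph 10338 genes were called (74.4%, of which 35.9% higher and 38.5% lower of all tested) with a median absolute log2 fold change of 0.67, and from 65 dph to adulthood 2948 (21.2%, 10.5% higher and 10.7% lower) with 0.30, against 4163 (30.0%) with 0.34 from 20 to 65 dph. Over all genes tested the median absolute log2 fold change was 0.50, 0.16 and 0.14 in the 3 successive steps. For PVALB the mean levels were 26.2, 147, 276 and 504 cpm at the 4 ages, with a rise after 65 dph (log2 fold change 0.87, adjusted p = 2.8e-08) beside 0.91 in the step before it. DPYSL3 had mean levels of 1186, 293, 105 and 50.9 cpm and was called lower at each of the 3 steps. GPR17 was highest at 20 dph, with 2.901, 13.1, 4.65 and 1.69 cpm at the 4 ages. From 65 dph to adulthood ITPR1 (786 and 814 cpm, adjusted p = 0.58) and RASD2 (110.2 and 109 cpm, adjusted p = 0.83) were not called.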

How the data were processed

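Telencephalon RNA of 24 pools had been sequenced from a stranded mRNA library. The table that the authors deposited holds raw, unnormalized counts for each Ensembl gene, made with STAR 2.5.2b and HTSeq 0.6.0 (versions from the submitters' processing notes, and the strand setting of counting and the treatment of reads with several positions are not given in the sources used here). All 24 columns were matched to a sample and 0 were left over. Sex and age came from the labels, which give no number shared between pools of different groups.

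Counts were tested in R 4.3.3 with edgeR 4.0.16 (TMM normalization, quasi-likelihood fit with a mean for each of the 8 groups, 16 residual degrees of freedom), for genes at 1 cpm or more in 3 or more pools. The contrast was the mean of the sexes at 65 dph minus that at 20 dph. The change in each sex alone was another contrast of the same fit, not a fit to the pools of that sex. P-values, adjusted over all tested genes by the Benjamini-Hochberg method and called at 0.05, measure the spread between pools. Levels are cpm after TMM, with ranges and medians over the 6 pools of an age, and counts of 3 or fewer reads per pool were taken as the floor. Fold changes are those of edgeR, with standard errors derived from its F statistic. The alternatives were the 12 pools alone, DESeq2's size factors, no TMM, no filter, the likelihood ratio test, DESeq2 1.42.0, a minimum fold of 1.2, each sex alone and each of 12 pools left out. The tests were also run on simulated data, whose outcome is not given here and lends the results no support. Figures were drawn with matplotlib 3.10.9.

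Symbols and Z linkage were taken from the study's supplementary tables by Ensembl identifier. Named genes were 12 per direction with the greatest change among called genes at 5 cpm or more at either age without overlap of the ages, 5 per direction with the smallest p-value, and, from each of 28 gene lists, the first 2 measured members and up to 4 called members per direction with the smallest p-value. For the 12 genes of greatest change per direction the absence of overlap was thus a condition and adds no support. Other members and genes without a symbol were named after their values were seen, and some members are not reported here. The comparison, the lists and their members were chosen with earlier results of these data known, so that no list is independent evidence of its direction. No coordinates or sequences were used here.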

Additional observations from a re-analysis of the deposited data

Results flagged for a closer look

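Among the 6 pools of an age, 1 pool stood apart in 22 of 436 gene and age groups examined for the 218 gene entries named, by Dixon's test, which flags about 1 in 20 groups by chance. The unnamed gene ENSTGUG00000001423 had 35.91 cpm in the third female pool of 65 dph and 0.8619 cpm in the next highest. It was called higher at 65 dph (log2 fold change 2.32, adjusted p = 0.030), and without that pool its log2 fold change was 0.03 (adjusted p = 0.95). The first female pool of 20 dph stood apart in CCNB3 at 0.8614 cpm (nearest pool 1.459), OXT at 1.809 cpm (nearest pool 0.8504), PDE1B at 106 cpm (nearest pool 91.28) and SEMA6A at 37.38 cpm (nearest pool 44.38). The third female pool of 20 dph stood apart in PDGFRB at 20.55 cpm (nearest pool 15.58). The first female pool of 65 dph stood apart in PLXNA4 at 23.88 cpm (nearest pool 21.58). The second female pool of 65 dph stood apart in LHX2 at 9.299 cpm (nearest pool 7.652), NKX2-4 at 0.1911 cpm (nearest pool 0.04843) and SPARC at 1039 cpm (nearest pool 955.5). The third female pool of 65 dph stood apart in CHGB at 661.5 cpm (nearest pool 597.6), CYP19A1 at 34.91 cpm (nearest pool 19.42), EOMES at 0.7032 cpm (nearest pool 0.5232) and IGSF9B at 105.2 cpm (nearest pool 82.75). The first male pool of 20 dph stood apart in BIRC5 at 3.702 cpm (nearest pool 2.728) and RPL4 at 515.7 cpm (nearest pool 465.4). The second male pool of 20 dph stood apart in SV2B at 132.3 cpm (nearest pool 163.9). The third male pool of 20 dph stood apart in SV2C at 34.89 cpm (nearest pool 25.23). The first male pool of 65 dph stood apart in ELN at 6.714 cpm (nearest pool 5.037), LSS at 60.08 cpm (nearest pool 50.83) and NR4A2 at 5.101 cpm (nearest pool 4.128). The third male pool of 65 dph stood apart in HSPB8 at 8.357 cpm (nearest pool 10.42). Without the third female pool of 65 dph CYP19A1 remained higher at 65 dph (log2 fold change 0.49, adjusted p = 0.0039).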

How the results depend on the processing

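The count of 4163 genes called between 20 and 65 dph was 4255 (2127 higher, 2128 lower) in the 12 pools alone, 4335 with DESeq2, 4200 with DESeq2's size factors, 4301 with the likelihood ratio test, 4060 without TMM (1674 higher, 2386 lower) and 3925 without a filter on low counts. It was 2494 in females alone, 2247 in males alone and 1070 against a minimum fold of 1.2, and without 1 pool it lay between 3559 and 3935. The 4163 genes shared 3906 with the calls in the 12 pools alone and 4090 with those of DESeq2. The sex difference was called for 0 genes in edgeR's quasi-likelihood test and 1 gene each with the likelihood ratio test (1) and DESeq2 (1), and for 0 genes without any 1 pool, with 612 to 1714 genes at an unadjusted p under 0.05 (1714 without the first female pool of 65 dph). No paired analysis was possible because the labels give no numbers shared between groups. Named genes close to the threshold moved across it. In the 12 pools alone AQP1, GATA3, SCN8A and MBP were called (adjusted p = 0.0159, 0.019, 0.0411 and 0.000769) and LHX2 was not (0.0824). AQP1, CLOCK and SCN8A were called with DESeq2 (0.0329, 0.0397 and 0.0397), and NPTX2 and TAC1 were not called without TMM (0.0595 and 0.0674). Of the 218 gene entries named, 30 lost their call in females alone, 42 in males alone and 66 against a minimum fold of 1.2, and 16 lost it without at least 1 of the pools. Directions of genes that were not called turned in females alone, with log2 fold changes of CSF3R -0.15, GAD1 -0.041, GATA2 0.039, GRIN2A -0.10, PENK 0.074, RPL3 0.14, SCN1A -0.0032 and TAL1 0.020. Directions of genes that were not called turned in males alone, with log2 fold changes of AGRP -0.024, ENSTGUG00000007701 -0.23, ENSTGUG00000013995 0.36, FOS -0.068 and PRLR 0.088. With library totals without TMM ENSTGUG00000007701 -0.011 turned. Without 1 pool the log2 fold changes spanned 0 for COL5A2 from -0.022 to 0.088, CSF3R from -0.18 to 0.59, ENSTGUG00000007701 from -0.025 to 0.038, GATA2 from -0.24 to 0.025, GRIN2A from -0.063 to 0.16, HBAA from -0.0085 to 0.13, HBE1 from -0.13 to 0.061, NKX2-4 from -0.25 to 1.63, RPL3 from -0.057 to 0.035 and TAL1 from -0.20 to 0.0062, none of them called in the main test. The causes of these shifts were not tested, except that fits on fewer pools have fewer residual degrees of freedom. The changes in females alone and in males alone were contrasts of the main fit and kept its residual degrees of freedom. Depth limits genes near the floor of 0.104 to 0.180 cpm, such as MKI67 and NKX2-4. Pooled birds, whole telencephalon and the partial pairing of symbols limit what the gene groups can show, and levels were not compared between genes because no gene lengths were used.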

Other observations

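Outside the gene groups, several genes that the rule for named genes did not reach changed without overlap of the ages, and they were picked after their values were seen. RGS4, which shortens signalling through G proteins, had 487 to 714 cpm (median 636) at 20 dph and 1078 to 1222 cpm (median 1176) at 65 dph (log2 fold change 0.89 ± 0.07 (SE), adjusted p = 7e-09). DGKB, a diacylglycerol kinase like DGKI, rose from a median of 120.4 to 246 cpm and RYR2, a calcium release channel like ITPR1, from 352 to 548 cpm. CAMKK1, a kinase activated by calmodulin, rose 2.099-fold and SYT12, a synaptotagmin, 2.02-fold. ST8SIA2, the enzyme that adds polysialic acid to the neural cell adhesion molecule of young neurons, fell from a median of 70.5 to 39.2 cpm (log2 fold change -0.84 ± 0.05 (SE), adjusted p = 9.3e-11). SHTN1, shootin, a protein of axon outgrowth, fell from 181 to 86.2 cpm, GJD2, the connexin of electrical synapses between neurons, from 24.04 to 10.3 cpm, and FADS2, a fatty acid desaturase, from 505 to 277 cpm. CXCR4, a chemokine receptor of migrating cells, fell 2.09-fold.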
